A study of Homo sapiens with 24 samples.

Results

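Arsenite and lomustine were set against each other in 6 lines of the same human parent, with arsenite standing for the treatment titled SA100. Its members are 15 of the 24 arrays of the series: all 6 titled SA100, 1 from each line, and all 9 titled lomustine. The 9 arrays with no drug were kept out of the contrast and are used only to say which drug moved a gene. For every gene the test asked whether SA100 minus lomustine departed from 0 with the line as a term. The arrays gave log2 values, and 17339 genes were tested.

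The cells were HAP1, a near-haploid human line that came from the chronic myelogenous leukemia line KBM-7. PAR is the parental line. S51A carries eIF2-alpha, a translation initiation factor, without the serine at which stress kinases phosphorylate it. The other lines are named for the loss of 1 eIF2-alpha kinase each: HRI (gene EIF2AK1), GCN2 (EIF2AK4), PKR (EIF2AK2) and PERK (EIF2AK3). All were bought from Horizon Discovery, and each mutant is represented by 1 line. Lomustine was given at 200 µM for 2 h and NaAsO2 at 100 µM for 2 h, per the treatment text. The agent field of the SA100 arrays names lomustine, which goes against their titles, and the arrays were grouped by title. PAR, S51A and HRI had lomustine repetitions A and B, and GCN2, PKR and PERK had 1 lomustine array each. The labels do not say whether A and B were separate cultures, so the p-values measure the spread between these arrays, which may be technical. An array of total RNA gives the level of a transcript relative to the others in the sample, so fewer cells and less RNA per cell cannot be told apart.

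Arsenite is a trivalent arsenic compound that binds thiol groups of proteins. It is a classical inducer of the heat shock, metal and oxidative stress responses, and it activates HRI, which phosphorylates eIF2-alpha, slows translation and lets stress granules form. Lomustine is a nitrosourea used against brain tumours that alkylates DNA and links its strands. The responses to such agents overlap in immediate-early genes, which are transcribed within minutes of many stimuli without new protein synthesis, and in targets of the transcription factor ATF4, which is translated when eIF2-alpha is phosphorylated.

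Some arrays stood apart. On S51A lomustine B, 8.37% of probe sets lay over 1 log2 unit away from their median across the 24 arrays, and on PAR lomustine A 3.16% did. The other arrays of the contrast lay between 0.739% and 2.73%. Those 2 arrays shared 36 genes that were at least 1 log2 unit above all 22 other arrays, of which 15 carry names of 5S ribosomal RNA copies (RN5S) and 10 names of microRNA precursors. Among the 17339 genes tested, 226 carry RN5S names and 463 names of microRNA precursors. The main counts, the classes, the list counts that changed and some single genes are also given without them below. The held-out lines and the motif shares are given from fits that include them. The line labels were checked with genes that set 1 line at least 1 log2 unit apart in all its arrays without SA100. S51A had 36 such genes, and the S51A SA100 array lay nearer to S51A in 35 of them. GCN2 had 2, TCEAL9 and GABRA5, and PAR, HRI, PKR and PERK had 0. TCEAL9 was 7.35 and GABRA5 was 6.49 on the array labelled PKR SA100, nearer to the GCN2 mean (6.81 and 5.95) than to the mean of the other lines (2.13 and 2.72). On GCN2 SA100, TCEAL9 was 7.72 and GABRA5 was 3.77, so that array was nearer to its own line in 1 of the 2. The array labelled PKR SA100 therefore goes against its label in both genes that could check it, and counts are also given without it.

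The transcripts of the targeted kinases did not settle the labels, since a probe set need not lie in the changed part of a gene. EIF2AK2 had its lowest SA100 value on the array labelled PKR SA100 (6.74, against 7.27 to 7.94 in the other lines). On the other PKR arrays EIF2AK2 was 7.79 with no drug and 7.55 with lomustine, inside the range of the other lines. EIF2AK3 was 4.31 in PERK with SA100, inside the range of the other lines (3.33 to 4.41). EIF2AK1 was 7.79 in HRI with SA100, the highest of the 6 values. EIF2AK4 was 5.76 in GCN2 with SA100, the lowest of the 6, with the next at 5.91. None of these genes passed the test between the drugs: the difference was -0.03 for EIF2AK1 (adjusted p = 0.954), 0.03 for EIF2AK2 (adjusted p = 0.959), -0.12 for EIF2AK3 (adjusted p = 0.816) and -0.08 for EIF2AK4 (adjusted p = 0.836) on the log2 scale. The lowest bound of their 95% intervals was -0.53 (EIF2AK3) and the highest 0.43 (EIF2AK2), so differences inside each gene's own interval are not excluded. The sign for EIF2AK2 turned to -0.09 after quantile normalization again and without the 2 arrays that stood apart. EIF2S1, the gene of eIF2-alpha itself, differed by 0.17 (adjusted p = 0.529). Blood markers (0 of 8 past the test, median difference 0.0316), epithelial markers (0 of 10, -0.0319) and fibroblast markers (0 of 7, 0.00295) had no member past the test.

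As deposited, many transcripts were higher with SA100 than with lomustine, and few were lower. Of the 17339 genes, limma called 305 higher with SA100 (1.76%) and 15 lower (0.0865%), at an adjusted p under 0.05. That balance depended on the scaling and on 2 arrays: it was 220 to 109 with quantile normalization again and 521 to 195 without PAR lomustine A and S51A lomustine B. At least 2-fold differences held for 78 of the former and 4 of the latter. The difference had the same sign in all 6 lines for 299 of the 305 and for all 15 lower genes. These genes were called from the same 6 lines, so the shared sign is no separate evidence. SA100 and lomustine values did not overlap for 257 genes in all (1.48% of those tested), of which 141 were called higher and 4 called lower. The median difference over all genes was 0.0818, and 67% of genes lay above 0, so small positive differences are shared by much of the array. At an unadjusted p under 0.05 there were 2755 genes. The counts moved with the arrays used: of the 320 calls, 77 held whichever array was left out and 69 whichever line. For GCN2, PKR and PERK, leaving out either array is the same fit as leaving out the line. Counts of calls lost among the 15 fits without 1 array therefore hold each of these fits for both arrays, and the fits without 1 line repeat them. Genes higher numbered 92 without either PERK array, 95 without either PKR array, 101 without either GCN2 array, 119 without HRI SA100, 168 without HRI lomustine A, 103 without S51A SA100, 186 without PAR SA100 and 187 without PAR lomustine A. They numbered 603 without S51A lomustine A. Genes lower ranged from 1 without either PERK array to 85 without S51A lomustine B.

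**Figure D1:**
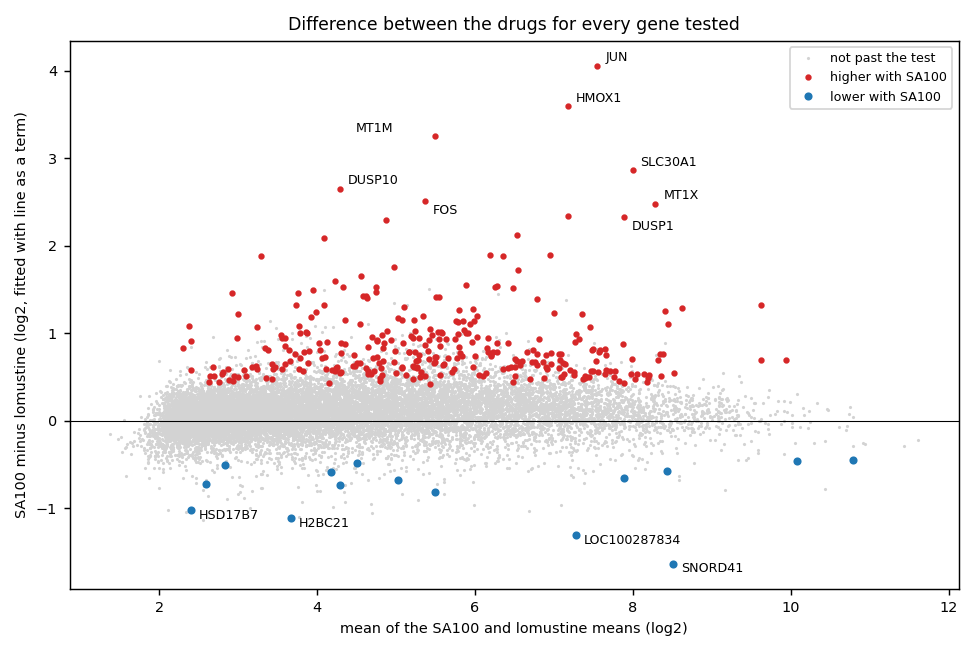
SA100 minus lomustine (log2, vertical axis) against the mean level of the 2 arms (log2, horizontal axis), 1 point for each of the 17339 genes tested. Red points mark the 305 genes called higher with SA100 and blue points the 15 called lower, and JUN stands highest at 4.06.

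Immediate-early genes were among the most changed. Of 34 tested, 16 were higher with SA100 (1.76% of all genes were), 0 lower and 18 did not pass. Their median difference was 0.654, against 0.0818 over all genes. JUN, a subunit of the transcription factor AP-1, had 9.11 to 10.03 with SA100 (median 9.66), 3.48 to 6.90 with lomustine (median 5.53) and 2.41 to 4.38 with no drug. Every SA100 array lay more than 2 log2 units above the highest lomustine array, which was HRI lomustine B. The difference was 4.06 (SE 0.360, 95% interval 3.28 to 4.84, adjusted p = 0.000102), 16.7-fold, and the call held whichever array or line was left out. FOS, the other classical AP-1 subunit, had 5.83 to 7.40 with SA100 (median 6.73) and 3.28 to 4.81 with lomustine (median 4.07), with no overlap. Its difference was 2.51 (SE 0.173, adjusted p = 1.38e-05), 5.69-fold. JUNB and JUND, further AP-1 subunits, differed by 1.14 (SE 0.17, adjusted p = 0.00536) and 1.27 (SE 0.22, adjusted p = 0.0136), whereas FOSB differed by 0.49 and did not pass.

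Outside AP-1, CCN1, a secreted matrix protein, ranged from 7.51 to 9.04 with SA100 (median 8.43) and from 5.14 to 7.14 with lomustine (median 5.91). The arms did not overlap, and the difference was 2.34 (SE 0.257, adjusted p = 0.000646). Its relative CCN2 differed by 1.75 (SE 0.27, adjusted p = 0.0066). KLF6, a zinc finger transcription factor, had 6.52 to 7.69 with SA100 (median 7.12) and 4.89 to 5.41 with lomustine (median 5.30). Its difference was 1.90 (SE 0.158, adjusted p = 6.87e-05), and the related KLF10 differed by 1.54 (SE 0.21, adjusted p = 0.00311). These 4 genes were no higher with lomustine than with no drug beyond the test: the changes with lomustine were -0.56, -0.68, -0.14 and 0.17.

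EGR1, the immediate-early transcription factor in the title of the series, rose with both drugs and was higher with SA100 by a difference near the threshold. It had 7.86 to 10.02 with SA100 (median 9.26), 6.89 to 8.69 with lomustine (median 7.87) and 3.59 to 4.75 with no drug (median 4.16). Both drug arms lay above every array with no drug, and they overlapped each other: the HRI SA100 array (7.86) was below 5 of the 9 lomustine arrays. The difference was 1.25 (SE 0.276, 95% interval 0.66 to 1.85, adjusted p = 0.0403), 2.38-fold, and it was positive in 6 of 6 lines. The call was lost in 11 of the 15 fits that left out 1 array and in 5 of the 6 that left out 1 line, and the adjusted p was 0.0986 after arrays were centred on the median. These counts include the repeated fits of GCN2, PKR and PERK. MYC, a growth regulator in the same list, had a difference of -0.08.

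**Figure D2:**
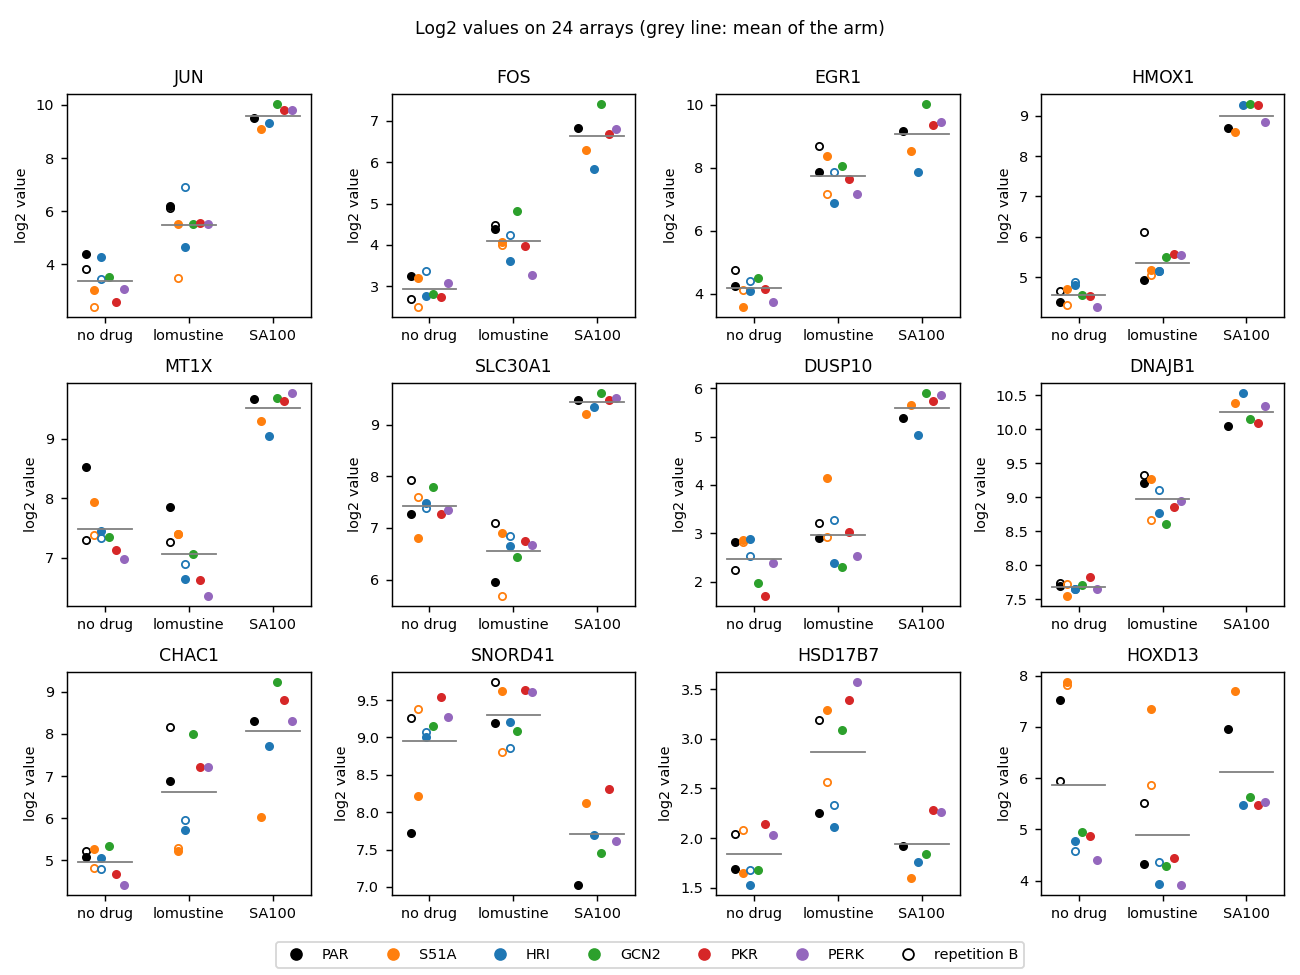
Log2 values of 12 genes on the 24 arrays by arm (no drug, lomustine, SA100), 1 point per array, coloured by line, open points for repetition B and a grey line for the mean of the arm. JUN, FOS, HMOX1, MT1X, SLC30A1, DUSP10 and DNAJB1 have no lomustine array as high as the lowest SA100 array, whereas the arms of EGR1, CHAC1 and HOXD13 overlap.

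Genes of zinc and copper handling were the group with the largest share of calls. Metallothioneins are small cysteine-rich proteins that bind metal ions, and the zinc sensor MTF1 drives them through metal response elements in their promoters. Of 9 such genes tested, 6 were higher with SA100 (1.76% of all genes were), 0 lower and 3 did not pass. Their median difference was 1.42. MT1M had 5.52 to 8.04 with SA100 (median 7.52), 2.79 to 4.69 with lomustine (median 3.82) and 3.78 to 5.78 with no drug. The SA100 arrays of S51A (5.52) and HRI (6.35) were the lowest, and all were above every lomustine array. The difference was 3.25 (SE 0.284, adjusted p = 0.000102), 9.54-fold. MT1X had 9.05 to 9.76 with SA100 (median 9.65) and 6.37 to 7.85 with lomustine (median 7.07), a difference of 2.48 (SE 0.178, adjusted p = 1.38e-05).

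MT1F differed by 2.12 (SE 0.292, adjusted p = 0.00321), MT1E by 1.42 (SE 0.22, adjusted p = 0.00682) and MT2A by 1.39 (SE 0.17, adjusted p = 0.00159). The genes of this family are close copies of each other, and so are pseudogenes such as MT1CP (1.88, SE 0.133), so probe sets may also detect relatives. SLC30A1, which exports zinc from the cell and is another MTF1 target, had 9.21 to 9.61 with SA100 (median 9.48), 5.69 to 7.09 with lomustine (median 6.67) and 6.81 to 7.92 with no drug (median 7.38). SA100 values lay above and most lomustine values below those with no drug. The difference was 2.86 (SE 0.203, 95% interval 2.42 to 3.30, adjusted p = 1.38e-05), 7.26-fold. The members that did not pass were MT3 (0.19), MTF1 itself (0.01) and the zinc importer SLC39A10 (-0.25).

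Of the 6 called genes, 3 had a promoter in the RefSeq-based table (GRCh38.p14), and they are printed to show matches to the core of that element. The window is the 250 bases before the gene start, 5′ to 3′ on the gene's strand, and capitals mark the metal response element core, TGCACNC or TGCGCNC read on both strands. Matches may overlap matches of other motifs. MT1X lies at chr16:56682220-56682469 on the plus strand with 4 matches, MT2A at chr16:56608334-56608583 on the plus strand with 7, and SLC30A1 at chr1:211579162-211579411 on the minus strand with 1.
MT1X: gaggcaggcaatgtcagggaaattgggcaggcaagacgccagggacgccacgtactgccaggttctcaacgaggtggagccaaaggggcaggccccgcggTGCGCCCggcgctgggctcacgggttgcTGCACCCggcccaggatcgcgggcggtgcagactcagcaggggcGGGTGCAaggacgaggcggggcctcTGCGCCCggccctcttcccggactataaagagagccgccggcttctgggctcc
MT2A: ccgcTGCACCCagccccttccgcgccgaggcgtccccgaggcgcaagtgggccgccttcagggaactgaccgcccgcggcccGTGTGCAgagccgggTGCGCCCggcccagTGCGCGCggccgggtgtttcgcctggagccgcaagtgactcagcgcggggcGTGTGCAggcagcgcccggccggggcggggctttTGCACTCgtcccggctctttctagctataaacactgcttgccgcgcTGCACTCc
SLC30A1: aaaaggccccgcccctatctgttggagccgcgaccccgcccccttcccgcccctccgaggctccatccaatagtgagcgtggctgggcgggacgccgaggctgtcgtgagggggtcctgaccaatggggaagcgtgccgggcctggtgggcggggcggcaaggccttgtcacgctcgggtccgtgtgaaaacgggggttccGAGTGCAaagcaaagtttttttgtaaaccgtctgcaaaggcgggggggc
The core is short and common: it was found in 24.7% of all 27305 promoters of that length, in 31.4% of the 12735 tested genes with a promoter, in 38.7% of the 235 called higher with one and in 45.3% of the 53 at least 2-fold higher. A match is a description of letters and no site of binding.

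Of 16 heat shock genes tested, the chaperones and helpers driven by HSF1, 8 were higher with SA100 (1.76% of all genes were), 0 lower and 8 did not pass. The median difference was 0.679, and all 16 had a difference above 0, as did 67% of all genes. DNAJB1, a co-chaperone of HSP70, had 10.05 to 10.53 with SA100 (median 10.25), 8.61 to 9.33 with lomustine (median 8.95) and 7.55 to 7.82 with no drug (median 7.69). The 3 arms formed a ladder with no overlap, and the difference between the drugs was 1.32 (SE 0.138, adjusted p = 0.000465). ZFAND2A, an AN1-type zinc finger protein that binds the proteasome, had 6.85 to 7.64 with SA100 (median 7.11) and 4.99 to 6.85 with lomustine (median 5.57). The lowest SA100 array (PAR) and HRI lomustine B were both at 6.85, and the difference was 1.51 (SE 0.221, adjusted p = 0.00512).

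CHORDC1, a partner of HSP90, had 4.73 to 6.04 with SA100 (median 5.62) and 3.25 to 4.73 with lomustine (median 3.95). The arms touched at 4.73, and the difference was 1.52 (SE 0.212, adjusted p = 0.00354). DEDD2, a death effector domain protein, differed by 1.72 (SE 0.183, adjusted p = 0.000494), and the collagen chaperone SERPINH1 by 1.29 (SE 0.17, adjusted p = 0.00204). BAG3, a co-chaperone in selective autophagy, differed by 1.23 (SE 0.18, adjusted p = 0.00467), HSPB1, a small heat shock protein, by 0.69 (SE 0.10) and HSPH1, of the HSP110 family, also by 0.69 (SE 0.10). The constitutive and inducible HSP90 genes HSP90AB1 (0.35) and HSP90AA1 (0.39) did not pass. Of the 8 called genes, 4 held a heat shock element pair (GAANNTTC or TTCNNGAA, both strands) in the same window, against 11.7% of all promoters. CHORDC1 had the most matches, 6, several of which overlap, at chr11:90223050-90223299 on the minus strand, and is printed with them in capitals.
CHORDC1: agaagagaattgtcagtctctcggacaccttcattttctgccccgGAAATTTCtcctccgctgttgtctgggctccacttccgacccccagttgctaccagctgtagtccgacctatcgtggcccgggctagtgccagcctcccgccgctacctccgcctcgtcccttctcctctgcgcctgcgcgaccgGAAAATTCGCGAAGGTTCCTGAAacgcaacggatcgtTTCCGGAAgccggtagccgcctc
DNAJB1, DEDD2 and BAG3 had 0 matches in this window, which says only that these letters are not there.

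Among 23 oxidative stress genes (targets of NRF2), HMOX1 had the largest difference. HMOX1, the heme oxygenase that degrades heme, had 8.59 to 9.29 with SA100 (median 9.06), 4.92 to 6.11 with lomustine (median 5.18) and 4.27 to 4.89 with no drug (median 4.55). Its difference was 3.60 (SE 0.178, 95% interval 3.21 to 3.98, adjusted p = 8.77e-07), 12.1-fold. The other call was TXNRD1, thioredoxin reductase, with 0.44 (SE 0.09, adjusted p = 0.0315), lost in 11 of the 15 fits without 1 array. The remaining 21 did not pass, 0 were lower, and the median of the list was 0.173, while 1.76% of all genes were called higher. GCLM and SRXN1, which serve glutathione synthesis and peroxiredoxin repair, differed by 0.57 and 0.37, and NQO1 by 0.17.

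Phosphatases of MAP kinases, which switch off stress kinase signals, also had calls, with 4 of 11 higher (1.76% of all genes were). Of the 11, 0 were lower, and the median was 0.561. DUSP10, which acts on JNK and p38, had 5.04 to 5.90 with SA100 (median 5.70), 2.30 to 4.14 with lomustine (median 2.93) and 1.71 to 2.88 with no drug. The arms did not overlap, and the difference was 2.65 (SE 0.239, adjusted p = 0.000102), 6.27-fold. Its lowest lomustine values lay under the median of all values (2.42), so that size is not firm. DUSP1, an immediate-early phosphatase, had 8.61 to 9.25 with SA100 (median 9.07), 6.12 to 7.17 with lomustine (median 6.77) and 4.93 to 5.32 with no drug. Its difference was 2.32 (SE 0.152, adjusted p = 1.38e-05). DUSP8 (1.59, SE 0.154) and DUSP16 (1.30, SE 0.177) were the other calls, and DUSP6, a phosphatase of ERK, had 0.32.

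Of 34 genes of the integrated stress response, which ATF4 and CHOP drive, 5 were higher with SA100 (1.76% of all genes were). In this list 0 were lower and 29 did not pass, with a median of 0.182, against 0.0818 over all genes. The 5 were ATF3, a stress transcription factor, with a difference of 1.26 (SE 0.142, adjusted p = 0.000818), CHAC1, an enzyme of glutathione breakdown, with 1.21 (SE 0.200, adjusted p = 0.01), PPP1R15A, the subunit that guides a phosphatase to eIF2-alpha, with 1.01 (SE 0.170, adjusted p = 0.0109), SESN2, a leucine sensor, with 0.81 (SE 0.142, adjusted p = 0.0136), and SLC3A2, a chain of amino acid transporters, with 0.54 (SE 0.10, adjusted p = 0.0229). Among members that did not pass, ASNS, asparagine synthetase, had -0.46 (adjusted p = 0.13) and the transporter SLC7A5 -0.45 (adjusted p = 0.099). DDIT3, which encodes CHOP, had 0.78 (adjusted p = 0.248) and DDIT4 0.85 (adjusted p = 0.0838).

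ATF4 had 8.28 to 8.61 with SA100 and 8.35 to 8.78 with lomustine, so the arms overlapped. Its difference was -0.10 (SE 0.092, 95% interval -0.30 to 0.10, adjusted p = 0.657), and it is controlled largely in translation, which an array does not measure. The level of CHAC1 depended on the line in both arms: with SA100 it was 6.03 in S51A and 7.71 to 9.23 in the other lines, and with lomustine 5.21 and 5.30 in S51A and 5.71 to 8.17 in the other lines. SESN2 was lowest in S51A in both arms too, with 5.79 against 6.61 to 8.03 after SA100 and 4.62 and 5.46 against 5.83 to 7.11 after lomustine. The difference between the drugs in S51A was 0.78 for CHAC1 and 0.75 for SESN2, and it did not depart from the other lines by the test (by -0.54, SE 0.51, and by -0.08, SE 0.38, adjusted p = 1 for both).

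Among p53 targets, 4 of 26 were higher with SA100 (1.76% of all genes were) and 0 lower, with a median of 0.369. GADD45A, a growth arrest gene, had a difference of 0.89 (SE 0.181, adjusted p = 0.0306), the death receptor TNFRSF10B 0.71 (SE 0.132, adjusted p = 0.0196) and PMAIP1, which encodes the BH3 protein NOXA, 0.61 (SE 0.141, adjusted p = 0.0484). SESN2 is the fourth and is also in the previous list. CDKN1A (0.59), MDM2 (0.30) and BBC3 (0.50), further p53 targets, did not pass. In the growth arrest list, 3 of 9 were higher and 0 lower: GADD45G with 1.13 (SE 0.223, adjusted p = 0.0277), CDKN1B, an inhibitor of cyclin-dependent kinases, with 0.99 (SE 0.161, adjusted p = 0.00901), and GADD45A. GADD45G was higher in 5 of 6 lines, since HRI had -0.03, and its call was lost in 8 of the 15 fits without 1 array. So was that of GADD45A (8), TNFRSF10B (8), PMAIP1 (11), SESN2 (5) and BAK1 (8); centring arrays on the median also ended the calls of GADD45A (adjusted p = 0.0591), TNFRSF10B (0.0689), PMAIP1 (0.132) and BAK1 (0.066). In the apoptosis list, 5 of 21 were higher and 0 lower, and TNFRSF10B and PMAIP1, already counted as p53 targets, are among the 5. MCL1, which protects from apoptosis, had 7.77 to 8.22 with SA100 and 6.86 to 7.35 with lomustine, a difference of 0.79 (SE 0.121, adjusted p = 0.0066). BAK1, which opens the outer mitochondrial membrane, had 0.62 (SE 0.118, adjusted p = 0.0228).

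Among repair genes for alkylated and crosslinked DNA 0 of 23 passed, and the median was 0.154. XRCC1, a scaffold of single-strand break repair, came nearest with 0.41 (SE 0.119, adjusted p = 0.107). It passed without the 2 arrays that stood apart (0.40, adjusted p = 0.0449) and over all 24 arrays (0.42, adjusted p = 0.0292). In the unfolded protein response 1 of 19 was higher (SEC61B, a subunit of the translocon, 0.49), among proteasome subunits 2 of 26 (PSMA3, 0.57, and PSMD12, 0.53), in stress granule components 1 of 22 (ZC3HAV1, 0.68) and among ligands of natural killer cells 1 of 6 (MICA, 0.51). Single calls also came from interferon genes (IRF7 of 8, 0.44), autophagy genes (GABARAPL1 of 18, 0.51) and hypoxia genes (ADM of 14, 1.47), while 1.76% of all genes were called higher. Apart from ADM these calls were fragile: leaving out 1 array ended them in 8 (ZC3HAV1) to 13 (MICA and IRF7) of 15 fits, and centring ended them all, with adjusted p between 0.0677 (ZC3HAV1) and 0.12 (PSMA3). NF-kB targets (17), S phase genes (19), mitosis genes (17), ribosomal protein genes (9), hosts of small nucleolar RNAs (11) and eIF2-alpha and its partners (10) had 0 calls in either direction, with medians between -0.00577 and 0.145. Not all of these counts held without the 2 arrays that stood apart. S phase then had ORC1 higher (0.40, adjusted p = 0.0477) and 1 gene lower, and mitosis had KIF20A higher (0.46, adjusted p = 0.0438).

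**Figure D3:**
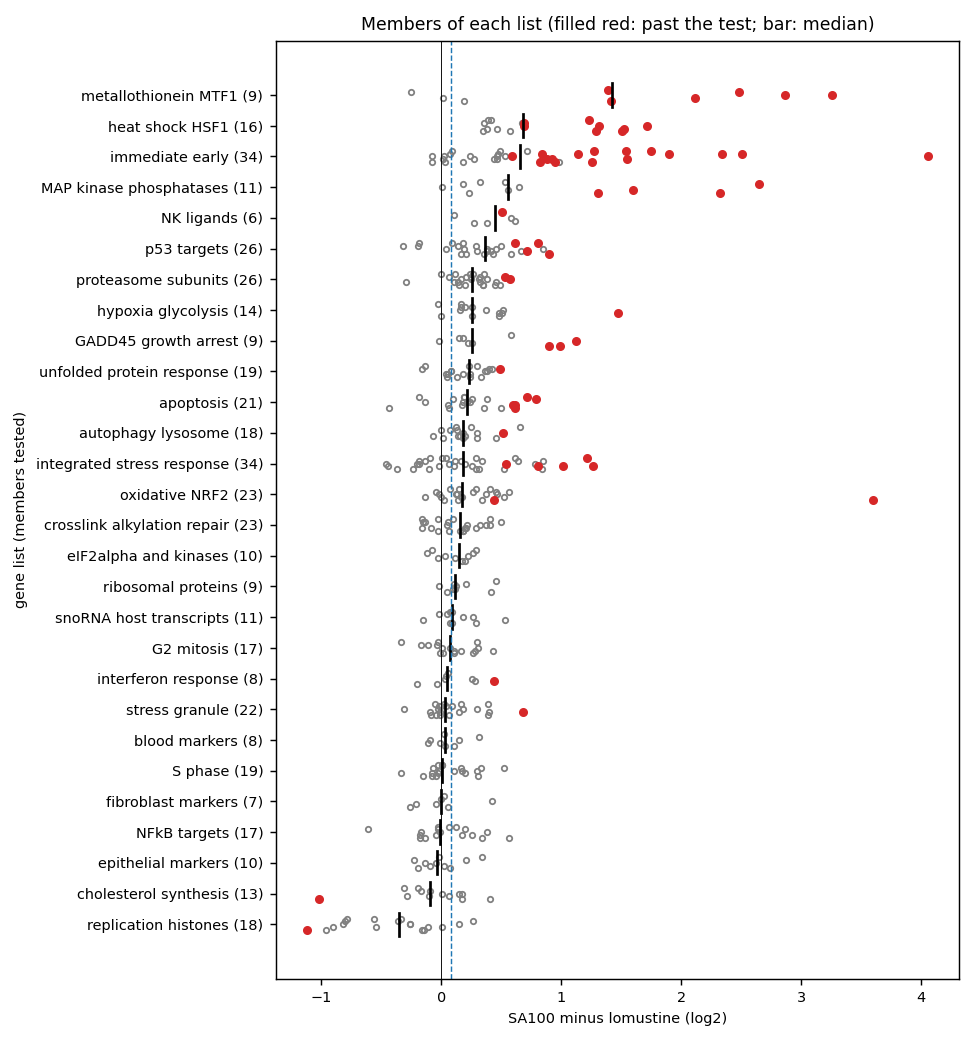
SA100 minus lomustine (log2, horizontal axis) for each tested member of 28 gene lists, with the number of members in brackets. Filled red points passed the test, black bars give the median of the list and the dashed line the median of all genes (0.0818); metallothionein genes have the highest median (1.42) and histone genes the lowest (-0.349).

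The 15 genes lower with SA100 held 3 of the 158 small nucleolar or Cajal body RNAs tested, 3 of 463 microRNA precursors and 0 of 226 RN5S genes, taken by symbol, beside 0.0865% of all genes. In the same classes 1, 9 and 10 genes were called higher, beside 1.76% of all genes. SNORD41, a small nucleolar RNA that guides methylation of ribosomal RNA, had 7.03 to 8.31 with SA100 (median 7.65), 8.80 to 9.74 with lomustine (median 9.21) and 7.72 to 9.54 with no drug. The arms did not overlap, and the difference was -1.64 (SE 0.193, adjusted p = 0.00111), 3.11-fold lower, kept whichever array was left out. SNORA65 and SNORA57, which guide pseudouridylation, had -0.66 (SE 0.119, adjusted p = 0.0172) and -0.58 (SE 0.125, adjusted p = 0.0399). RN7SK, the RNA that restrains the elongation factor P-TEFb, had -0.46 (SE 0.093, adjusted p = 0.0297), and mitochondrial COX2, cytochrome c oxidase subunit 2, had -0.45 (SE 0.099, adjusted p = 0.0403). H2BC21, a histone H2B gene, had -1.12 (SE 0.253, adjusted p = 0.0457) and was the 1 call among 18 histone genes, whose median was -0.349; its call was lost in 12 of the 15 fits without 1 array. LENG8 had -0.82 and HSPG2, a basement membrane proteoglycan, -0.59. Leaving out 1 array also ended the calls of RN7SK (11 of 15 fits), HSPG2 (11), COX2 (10), SNORA57 (10), LENG8 (9) and SNORA65 (5). Centring ended those of H2BC21 (adjusted p = 0.11), RN7SK (0.0633), HSPG2 (0.0957), COX2 (0.108), SNORA57 (0.102) and LENG8 (0.0677). MIR548T and TSSK3 were called by their strongest probe set and not by the mean of their probe sets (-0.26, adjusted p = 0.435, and -0.34, adjusted p = 0.165).

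Comparing each drug with no drug over the 24 arrays sorted the called genes by which drug moved them. SA100 changed 530 genes against no drug (3.06%) and lomustine 178 (1.03%). These comparisons share arrays with the contrast, so the classes are a description with no test of their own. A gene was called specific to a drug if that drug passed against no drug in the direction of the contrast while the other did not pass and stayed within 0.5 log2 units of 0. By this rule 134 genes were specific to SA100 (128 up, 6 down) and 23 to lomustine (2 up, 21 down). Genes up with SA100 or down with lomustine could come only from the 305 called higher. The opposite directions could come only from the 15 called lower, so these splits are tied to that balance. Of the called genes, both drugs moved 16 the same way and 2 in opposite ways. A further 138 genes called higher and 7 called lower fell in no class. Without the 2 arrays that stood apart the numbers were 346, 25, 22 and 3, and leaving out a line gave 43 (PERK) to 141 (S51A) specific to SA100 and 3 (GCN2 or PERK) to 10 (HRI) specific to lomustine.

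The genes specific to SA100 with the largest differences were DUSP10, MT1X, RN5S85, MT1F, RN5S141 and KLF6. DUSP10 had 3.18 against no drug with SA100 and 0.50 with lomustine (adjusted p = 0.241), at the edge of the limit. Its values with no drug (1.71 to 2.88) reached below the median of all values (2.42), so these sizes are not firm. MT1X had 2.07 and -0.43, and KLF6 had 1.80 and -0.14. RN5S85 and RN5S141 carry names of the many near-identical 5S ribosomal RNA copies, so a probe set may detect more than the copy it is named for. RN5S85 was also at 6.38 and 6.67 on PAR no drug A and S51A no drug A, above the highest SA100 value of 6.45 in the second case, so its SA100 arm is not separate from no drug. The 6 genes down were SNORD41, SNORA65, HSPG2, SNORA57, TSSK3 and COX2.

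Of the 23 genes specific to lomustine, 21 were down and 2 up, a split tied by the rule to the balance of the calls. HOXD13, a homeobox factor, had 5.47 to 7.69 with SA100, 3.92 to 7.35 with lomustine and 4.41 to 7.87 with no drug, with the highest value of each arm in S51A. With the line as a term it fell with lomustine, by -0.97 against no drug (adjusted p = 0.0463), and SA100 had 0.49 (adjusted p = 0.366). MIR548AL had -0.91 with lomustine, SYDE2, a RhoGAP, -0.85, ZIC5, a zinc finger factor, -0.62, CHST7, a sulfotransferase, -0.59, and EPHA4, an ephrin receptor, -0.53. The mean of MIR548AL with lomustine was 2.37, under the median of all values (2.42), so the size of its fall is not firm. ZC3HAV1, the antiviral zinc finger protein, had -0.59 with lomustine (adjusted p = 0.00755) and 0.08 with SA100. The 2 genes up were HSD17B7 and SEMA6B. HSD17B7, an enzyme of cholesterol and steroid synthesis, had 1.60 to 2.28 with SA100, 2.11 to 3.57 with lomustine (median 3.09) and 1.53 to 2.14 with no drug. Lomustine raised it by 1.03 (adjusted p = 0.000228), but all its SA100 values and all its values with no drug lay below the median of all values on the arrays (2.42), where a low level cannot be told apart from background. The sizes of its differences are therefore not firm. SEMA6B, a semaphorin, rose by 0.38 with lomustine (adjusted p = 0.029). Its call between the drugs was lost in 11 of the 15 fits without 1 array and after centring (adjusted p = 0.0677). Such fits also ended the calls of SYDE2 (8), ZC3HAV1 (8), CHST7 (7), HSD17B7 (7) and HOXD13 (2), and those of MIR548AL, ZIC5 and EPHA4 held in all.

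The 2 genes moved in opposite ways were SLC30A1, up by 1.99 with SA100 (adjusted p = 3.45e-07) and down with lomustine (-0.88, adjusted p = 0.00815), and UBFD1, a ubiquitin-related protein gene, with 0.38 (adjusted p = 0.0395) and -0.45 (adjusted p = 0.0111). Among genes called between the drugs, all 16 that both drugs moved the same way were raised, and all were higher with SA100: JUN, HMOX1, FOS, DUSP1, IER2, ZFAND2A, DNAJB1, ATF3, EGR1, BAG3, CHAC1, PPP1R15A, MXD1, ZFP36, SESN2 and PMAIP1. Genes that both drugs moved alike without a call between the drugs are not counted among these 16. An example is RPLP1, which passed against no drug with SA100 (-1.13) and with lomustine (-1.57). Their changes against no drug ran from 1.36 (PMAIP1) to 6.21 (JUN) with SA100 and from 0.72 (PMAIP1) to 3.57 (EGR1) with lomustine. EGR1 had 4.85 with SA100 and 3.57 with lomustine, JUN 6.21 and 2.11, and HMOX1 4.41 and 0.78, all on the log2 scale against the same arrays with no drug.

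**Figure D4:**
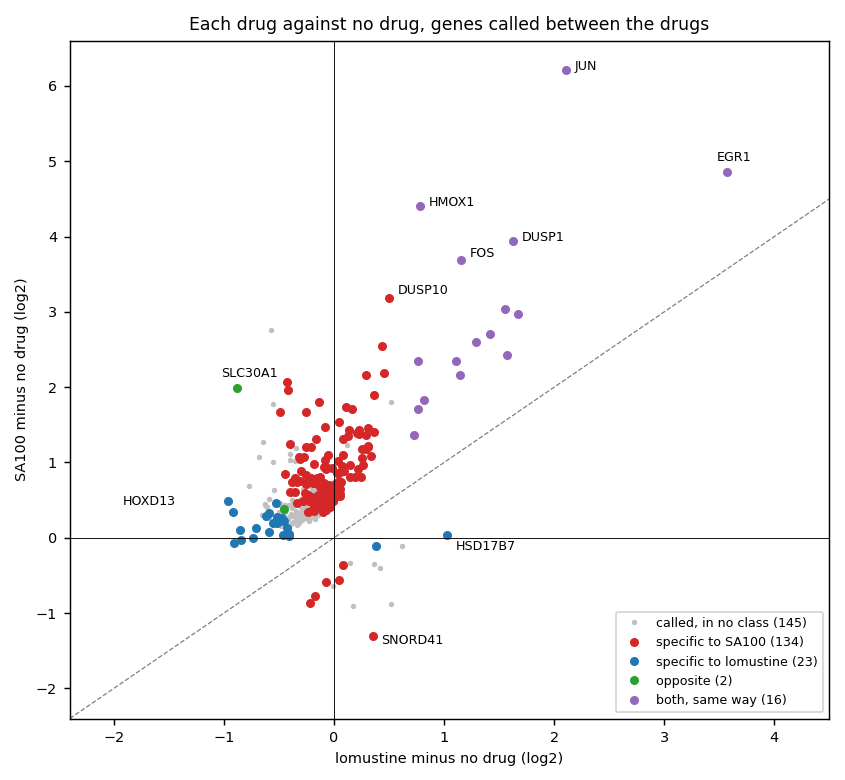
Change against no drug with lomustine (horizontal axis, log2) and with SA100 (vertical axis, log2) for the 320 genes called between the drugs, coloured by class, with a dashed line where both changes are equal. The 16 of these called genes that both drugs raised lie above the dashed line, and SLC30A1 lies left of and above 0.

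The difference between the drugs was similar in direction across lines. Among the 305 genes called higher, the median difference ran from 0.599 in PAR to 0.924 in PERK, and among the 15 called lower from -0.904 in PKR to -0.464 in HRI. Since those genes were called with all lines, each line was also left out of the calls. Of the 186 genes called higher without PAR, 86.6% were above 0 in PAR, where 59.2% of all genes were. For the other lines this share lay between 96% (HRI, 100 genes) and 98.9% (PERK, 92 genes), with 54.6% to 67.1% of all genes above 0. Their median in the line left out ran from 0.566 (PAR) to 1.34 (PERK). Of the 9 genes called lower without PAR, 6 were below 0 in PAR, and of the 16 without S51A, 11 were in S51A. The smaller counts, of 1 or 2 genes for the other lines, all kept their sign. The left-out lines gave no test.

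**Figure D5:**
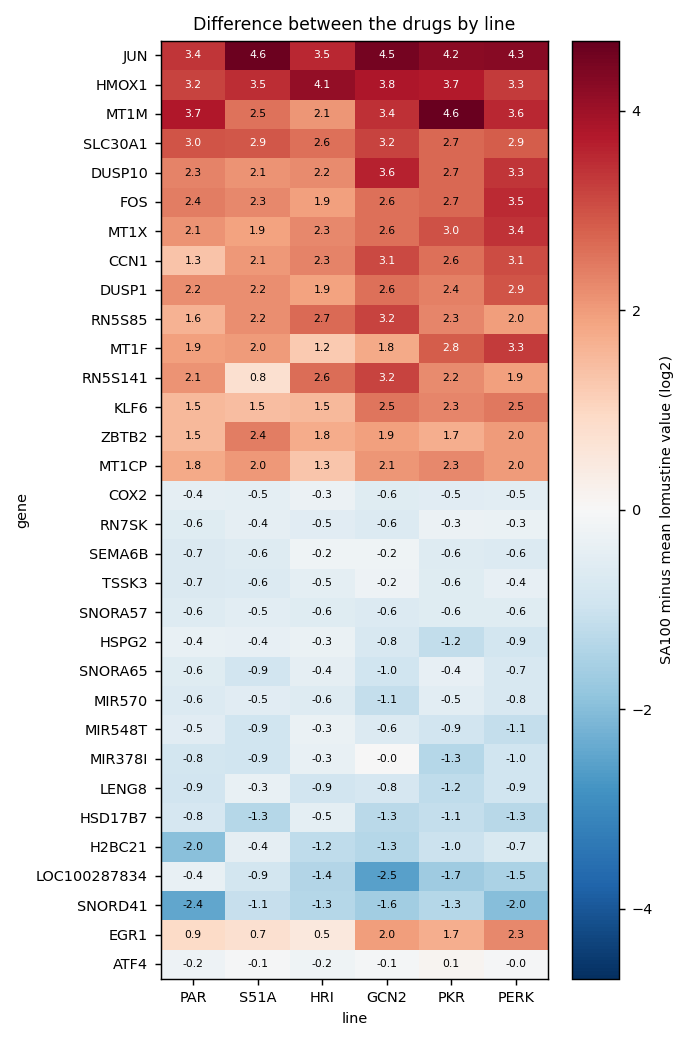
SA100 value minus the mean lomustine value (log2) in each of the 6 lines for the 15 genes highest and the 15 lowest in the contrast, with EGR1 and ATF4 in the bottom positions. JUN ranges from 3.37 (PAR) to 4.62 (S51A) and EGR1 from 0.48 (HRI) to 2.27 (PERK).

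Whether the difference depended on the line was tested for each line against the other 5. PAR had 5 genes past the test (0.0288%) and PKR 1 (0.00577%), whereas S51A, HRI, GCN2 and PERK had 0 (0%). At an unadjusted p under 0.05 there were 650 genes for PAR, 131 for S51A, 205 for HRI, 133 for GCN2, 162 for PKR and 211 for PERK. None of the genes past these tests was called in the contrast itself. Named by the rule, LINC02582 departed in PAR by 4.33 (SE 0.47), SCGB3A2, a secretoglobin, by 2.53 (SE 0.26) and RTP1, a transporter of olfactory receptors, by 2.12 (SE 0.23), each with an adjusted p of 0.00747; SLC12A3 (2.58, SE 0.31, adjusted p = 0.0142) and BST2 (-2.33, SE 0.32, adjusted p = 0.0429), named after their values were seen, were the other calls. All 3 were high on the PAR SA100 array (5.74, 4.28 and 4.13) and on PAR no drug A (7.05, 5.96 and 4.11), and low on PAR no drug B (1.48, 2.28 and 1.89) and on both PAR lomustine arrays. TCEAL9 departed in PKR by 4.5 (SE 0.48, adjusted p = 0.0186). It was 7.35 on the array labelled PKR SA100, 2.35 and 2.00 on the other PKR arrays and 6.61 to 7.72 on the 3 GCN2 arrays, so this call rests on the array that goes against its label.

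EGR1 differed by 0.90 in PAR, 0.74 in S51A, 0.48 in HRI, 1.98 in GCN2, 1.70 in PKR and 2.27 in PERK. The largest departure of EGR1, 1.19 in PERK (SE 0.75, adjusted p = 1), did not pass, nor did any for JUN, FOS, HMOX1, MT1M, MT1F or DUSP10. MT1M had the widest spread among these, from 2.07 in HRI to 4.64 in PKR. With 1 SA100 array in each line, the spread in this test came from the lomustine duplicates and from how the difference varied among the other lines. The test assumes that single arrays vary like the duplicated ones.

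Leaving out PAR lomustine A together with S51A lomustine B gave more calls and another balance. There were 521 genes higher (3%) and 195 lower (1.12%), and all 320 genes of the fit with 15 arrays kept their call. The 216 new higher genes included DDIT4 (0.94, adjusted p = 0.049), the actin-binding TPM1 (0.80, adjusted p = 0.0452) and the annexins ANXA1 (1.68, adjusted p = 0.0489) and ANXA2 (0.77, adjusted p = 0.0142). Among the 180 new lower genes were SREBF1, the lipid synthesis regulator (-1.04, adjusted p = 0.025), and GAA, the lysosomal glucosidase (-0.91, adjusted p = 0.00609); these 6, and the histone genes named next, were chosen after their values were seen. Calls among histone genes went from 1 to 6 lower of 18 (median -0.413), with H1-2 (-1.08), H2BC5 (-1.04), H3C13 (-0.92) and H2AC6 (-0.90) among them. Small nucleolar and Cajal body RNAs, taken by their symbols, went from 3 lower and 1 higher to 11 lower and 6 higher of 158. RN5S genes went from 10 higher and 0 lower to 22 higher and 6 lower of 226. Cholesterol synthesis had 2 lower of 13.

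The lists that led the contrast kept most of their counts: immediate-early genes had 16 of 34 higher, heat shock genes 9 of 16, metallothionein genes 6 of 9, MAP kinase phosphatases 5 of 11 and the integrated stress response 7 higher and 1 lower of 34. Other list counts changed too. Genes higher were 7 of 26 p53 targets, 6 of 21 apoptosis genes, 4 of 9 growth arrest genes and 3 of 23 NRF2 targets. They were 4 of 26 proteasome subunits, 2 of 18 autophagy genes and 3 of 14 hypoxia genes. Repair genes had 1 higher of 23, mitosis genes 1 higher of 17, and S phase genes 1 higher and 1 lower of 19. Of all genes, 3% were higher and 1.12% lower in that fit. JUN differed by 3.91, HMOX1 by 3.52, SLC30A1 by 2.67 and SNORD41 by -1.73. EGR1 kept its call with 1.14 (adjusted p = 0.0457). The balance of directions moved with the scaling as well: with quantile normalization again, 220 genes were higher and 109 lower, so that 66.9% of calls were higher, against 95.3% as deposited and 72.8% without the 2 arrays. Without the PKR line, and so without the SA100 array that goes against its label, 95 genes were higher and 2 lower. Without the GCN2 and PKR lines together 31 were higher and 1 lower, all among the 320.

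Across all called genes, short motifs were set beside the share in promoters of the same length. The cyclic AMP response element TGACGTCA was in 17 of the 235 promoters of genes called higher (7.23%), in 2.58% of tested genes and in 1.77% of all promoters. Among the 53 at least 2-fold higher it was in 7 (13.2%), DUSP1 and DUSP8 included. The AP-1 motif TGANTCA was in 5.11% of the called promoters and 4.56% of tested ones, and the composite of ATF4 and C/EBP (TGATGNAA) in 1.7% and 1.76%. The antioxidant response element core (TGACNNNGC) was in 17% against 12%. The CArG box, which binds the serum response factor, was found in EGR1 (2 matches) and in 2.13% of called promoters, against 1.07% of tested ones and 1.14% of all. All motifs were read on both strands, could overlap, and were not tested.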

How the data were processed

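Expression was measured on 24 Affymetrix arrays of HAP1 lines. The deposited values are on the log2 scale and were made with RMA in the affy package, per the submitters' processing notes; versions, annotation build and scan batches were not given in the sources used here. RMA's shared quantile scale can hide shifts that touch most transcripts; precision is set by how many arrays each group has. The array table named 23558 probe sets with 1 gene symbol, 2155 with several and 27904 with none, and only the first were used. For each of 22109 genes the probe set with the highest mean was kept, and 17339 genes that reached the median of all values (2.42) on at least 2 arrays were tested.

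Differences, standard errors and Benjamini-Hochberg adjusted p-values came from limma 3.58.1 (lmFit and eBayes, R 4.3.3) with terms for treatment and line over 15 arrays, with 0.05 as threshold. Each drug was set against no drug over all 24 arrays, and each line's difference against the other 5 lines by an interaction term. Scripts were tested on simulated data.

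Named genes were EGR1, JUN, FOS, ATF4, HMOX1, EIF2S1 and the 4 kinase genes, up to 15 in each direction with the largest difference and the same sign in 6 lines, up to 4 called members of each list (or the 2 with the smallest p where none passed), up to 6 of each class and up to 3 of each interaction; further list members are given for context. The contrast and the gene lists were chosen with earlier results of these data known, so they are not independent of them. Promoters came from a RefSeq table (GRCh38.p14); probe set positions were not used here. Alternatives covered filters, probe set choice, scaling, variance prior, line and replicate terms, array weights and arrays or lines left out; leaving out the GCN2 and PKR lines was chosen after seeing the data. The iteration for array weights stopped before it converged.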

Additional observations from a re-analysis of the deposited data

Results flagged for a closer look

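Some arrays lay far from the rest of their arm in a named gene; the limit used is one that about 1 in 20 groups of like values would pass by chance, and the lines within an arm are not alike, so the rate here was not tested. S51A lomustine B was low in EIF2AK1 (6.92, next 7.51), EIF2AK2 (6.35, next 7.32) and ORC1 (6.57, next 7.39), and S51A lomustine A was low in VIM (3.64, next 4.9). HRI SA100 was low in DUSP1 (8.61, next 9.03) and MT1CP (6.79, next 7.26). GCN2 SA100 was high in SEMA6B (4.76, next 4.32). PAR SA100 was high in SNHG16 (8.55, next 8.4), KRT19 (3.5, next 3.11), LINC02582 (5.74, next 1.75), SCGB3A2 (4.28, next 2.1) and RTP1 (4.13, next 2.21). GCN2 lomustine was high in TCEAL9 (6.61, next 2.35); with SA100 it was high on both GCN2 SA100 and the array labelled PKR SA100.

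The difference between the drugs departed from that of the other lines in PAR for LINC02582 by 4.33, SCGB3A2 by 2.53 and RTP1 by 2.12, and in the line labelled PKR for TCEAL9 by 4.5, each by the interaction term in limma.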

How the results depend on the processing

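Among named genes the sign turned for EIF2AK2 alone under the 5 settings run for them, from 0.03 to -0.09 both with quantile normalization again and without the arrays PAR lomustine A and S51A lomustine B. List medians near 0 changed sign too: without those arrays crosslink repair went from 0.154 to -0.0197, S phase from 0.00709 to -0.0999, stress granules from 0.0343 to -0.00892 and epithelial markers from -0.0319 to 0.0172. With quantile normalization again S phase (-0.0966), mitosis (-0.0447), stress granules (-0.0534) and fibroblast markers (-0.0467) fell below 0, with centring S phase (-0.000987) and fibroblast markers (-0.00513) did, and over all 24 arrays NF-kB targets were at 0.00178. The counts depended on the processing, and the cause was not tested. Against 305 genes higher and 15 lower, centring arrays on the median gave 123 and 4, quantile normalization again 220 and 109, and a trended robust prior 306 and 26. A fit over all 24 arrays gave 950 and 82. The same fit with the replicate block (line and letter) gave 981 and 90, and 135, 16, 2 and 16 genes specific to SA100, specific to lomustine, opposite and moved by both; the letters are not stated to mark shared cultures. Without a line term there were 507 and 31, with A and B averaged first 1681 and 271, with array quality weights 1956 and 330, and without the 2 arrays 521 and 195. Without the GCN2 and PKR lines, chosen after seeing the data, there were 31 and 1, with 14, 0, 0 and 5 in the 4 classes. Leaving out 1 array or line gave 92 to 603 higher and 1 to 85 lower. For the classes each line in turn was left out, and no single array: this gave 43 to 141 specific to SA100, 3 to 10 specific to lomustine, 0 to 2 opposite and 9 to 16 moved by both. Centring gave 60 specific to SA100, 5 specific to lomustine and 1 opposite, quantile normalization again 15 specific to lomustine, and the fit without the 2 arrays 346 specific to SA100. Departures in PAR numbered 10 without the 2 arrays and 0 (without PAR lomustine B) to 12 (without S51A lomustine B) with 1 array left out. Departures in S51A numbered 1 with quantile normalization again, the trended prior or without the 2 arrays, and 0 to 2 with 1 array left out; those in PKR numbered 0 to 1. Among named genes 25 lost the call after centring and 7 after quantile normalization again. Without the 2 arrays 3 gained a call, and over all 24 arrays 4 gained and 2 lost it. Probe sets under 2.42 are not told from background.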

Other observations

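Further transcripts outside the lists and the naming rule, chosen after their values were seen, were higher with SA100. BAMBI, a decoy receptor of TGF-beta signalling, differed by 1.53, and SKIL, a repressor of the same pathway, by 1.15. TNFRSF10D, a decoy receptor for TRAIL, differed by 1.65, ANKRD1, a nuclear ankyrin repeat protein, by 1.46, AMOTL2, of the angiomotin family, by 0.94 and TXNIP, which binds thioredoxin, by 1.24. HSPA6, an inducible HSP70, had 3.87 to 4.64 with SA100 and 1.90 to 3.24 with lomustine, a difference of 1.88 (SE 0.17). Of 226 genes with RN5S names, 10 were called higher (1.76% of all genes were) and 0 lower, and without PAR lomustine A and S51A lomustine B 22 were higher and 6 lower (3% and 1.12% of all genes), among the latter RN5S150 with -1.31 (adjusted p = 0.00131); these names stand for near-identical copies, and 15 such genes were also high on PAR lomustine A and S51A lomustine B.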
